A study of Mus musculus with 8 samples.

Results

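The 10 genes described here are the G1 cyclins Ccnd1, Ccnd2, Ccnd3, Ccne1 and Ccne2, the cyclin-dependent kinases Cdk4 and Cdk6, and the Cip/Kip inhibitors Cdkn1a (p21), Cdkn1b (p27) and Cdkn1c (p57). They were listed by name with earlier results of these data known, and all 10 were among the 14598 of 23420 gene symbols with enough reads to be tested. The data are poly(A) RNA-seq counts from mouse uterine stromal cells of day 3 females, 4 libraries carrying the label Erbb3f/f and another 4 the label Erbb3d/d. In common notation f marks a loxP-flanked allele and d a deleted one. The labels name no Cre line, no strain or age, no event from which day 3 is counted, and no pooling of animals. They also do not say that replicates came from separate animals, so the p-values measure the spread between these libraries, which may be technical.

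G1 cyclins carry mitogen signals into the cell cycle. D-type cyclins bind CDK4 or CDK6 and start the phosphorylation of the RB protein, which releases E2F transcription factors, and E-type cyclins with CDK2 carry the cell into S phase. Cip/Kip proteins inhibit these kinases, and p21 is a classical target of p53. In the mouse uterus, stromal cells divide before and during decidualization, when cyclin D3 with CDK6 and p21 are known to take part.

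Counts in genes ranged from 8578575 to 12854367 reads per library. Levels are given as CPM, the reads of a gene scaled to a fixed total of reads in the genes tested, with TMM library factors. Erbb3 itself was not reduced under the Erbb3d/d label. It stood at 7.40, 10.6, 8.25 and 12.3 CPM in Erbb3f/f and at 7.37, 14.4, 17.6 and 16.2 CPM in Erbb3d/d, with a log2 fold change of 0.53 ± 0.28 (SE) and an edgeR adjusted p of 0.485. Every direction below is therefore between labels. The collagen genes Col3a1, Col1a1 and Col1a2 were the most abundant of the stromal markers, with list sums of 13460 to 17320 CPM in Erbb3f/f against 11620 to 16060 CPM in Erbb3d/d. Epithelial markers summed to 896 to 1419 CPM and 1359 to 2195 CPM, and smooth muscle markers to 1344 to 2442 CPM and 2085 to 4857 CPM, in the same order. None of the listed markers of any cell type was at 0 in every library. In bulk RNA, fewer cells of a type and less RNA per cell cannot be told apart.

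Promoter sequence from RefSeq (GRCm38.p6) was available for 6 of the 10 genes. It is shown for Cdkn1a, which had the largest difference of the 10, and for Cdk4, which had the smallest. Each run ends at the base before an annotated start, on the plus strand. In the first, for the upstream Cdkn1a start at chr17:29090829-29090978, capitals mark a pair of CATG cores 6 bases apart with the bases between them. The second, at chr17:29093619-29093768, lies before the downstream Cdkn1a start, and capitals mark the GC box GGGCGG. In the third, before Cdk4 at chr10:127063285-127063534, capitals mark the E-box CACGTG, the site type read by MYC and its partners.
Cdkn1a upstream start: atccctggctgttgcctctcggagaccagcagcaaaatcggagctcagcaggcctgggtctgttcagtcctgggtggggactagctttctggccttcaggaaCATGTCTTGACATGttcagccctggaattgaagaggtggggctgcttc
Cdkn1a downstream start: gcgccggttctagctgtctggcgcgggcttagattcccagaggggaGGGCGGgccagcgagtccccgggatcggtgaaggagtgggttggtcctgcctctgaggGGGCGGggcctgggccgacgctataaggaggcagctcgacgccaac
Cdk4: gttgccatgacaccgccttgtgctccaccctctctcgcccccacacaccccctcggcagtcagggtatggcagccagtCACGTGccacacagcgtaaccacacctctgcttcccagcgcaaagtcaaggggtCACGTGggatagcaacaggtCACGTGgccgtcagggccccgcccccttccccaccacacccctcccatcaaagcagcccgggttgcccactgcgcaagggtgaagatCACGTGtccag
Matches were sought on both strands. The TATA box TATAAA and the E2F sites TTTCCCGC, TTTGGCGC and TTTCGCGC, in 13.6% and 1.845% of windows of 300 bases, were also sought and had no match in these runs. No 2 matches overlapped. The paired CATG cores begin 48 bases before the upstream Cdkn1a start, and cores of this type are the centre of the p53 response element. That pattern was chosen after the sequence was seen. It was found in the 250 bases before the start in 0.490% of 32851 promoter windows. The downstream Cdkn1a start has GC boxes at 104 and 46 bases before it, and a GC box is in 35.7% of windows of 300 bases. Cdk4 has 4 E-boxes, at 172, 118, 98 and 11 bases before its start. Its run also holds a GC box on the other strand, 80 bases before the start and left in lower case. At least 1 E-box was present in 7.15% of windows of 300 bases, and 4 or more in 8 windows, 0.0244%. A match describes letters, not a bound site.

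None of the 10 genes passed an adjusted p of 0.05 in the edgeR quasi-likelihood test, and neither did any other of the 14598 genes (0%). At an unadjusted p under 0.05 in edgeR, 3 of the 10 were higher in Erbb3d/d (Ccnd1, Cdkn1a and Cdkn1b) and none was lower. Over all genes tested, 6.64% were higher and 4.97% lower by the same rule, and the count of 3 is a description of a chosen set. The estimate was above 0 for 7 genes and below 0 for 3, with a median log2 fold change of 0.23. Over all 14598 genes it was above 0 for 7000 and below 0 for 7598, with a median of -0.01. In none of the 10 were the groups free of overlap, against 2.56% of all genes without overlap and higher in Erbb3d/d and 2.48% lower. With 4 libraries a label, the exact two-sided permutation test can give no p below 0.0286, and none of the 10 reached 0.05 in it.

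**Figure D1:**
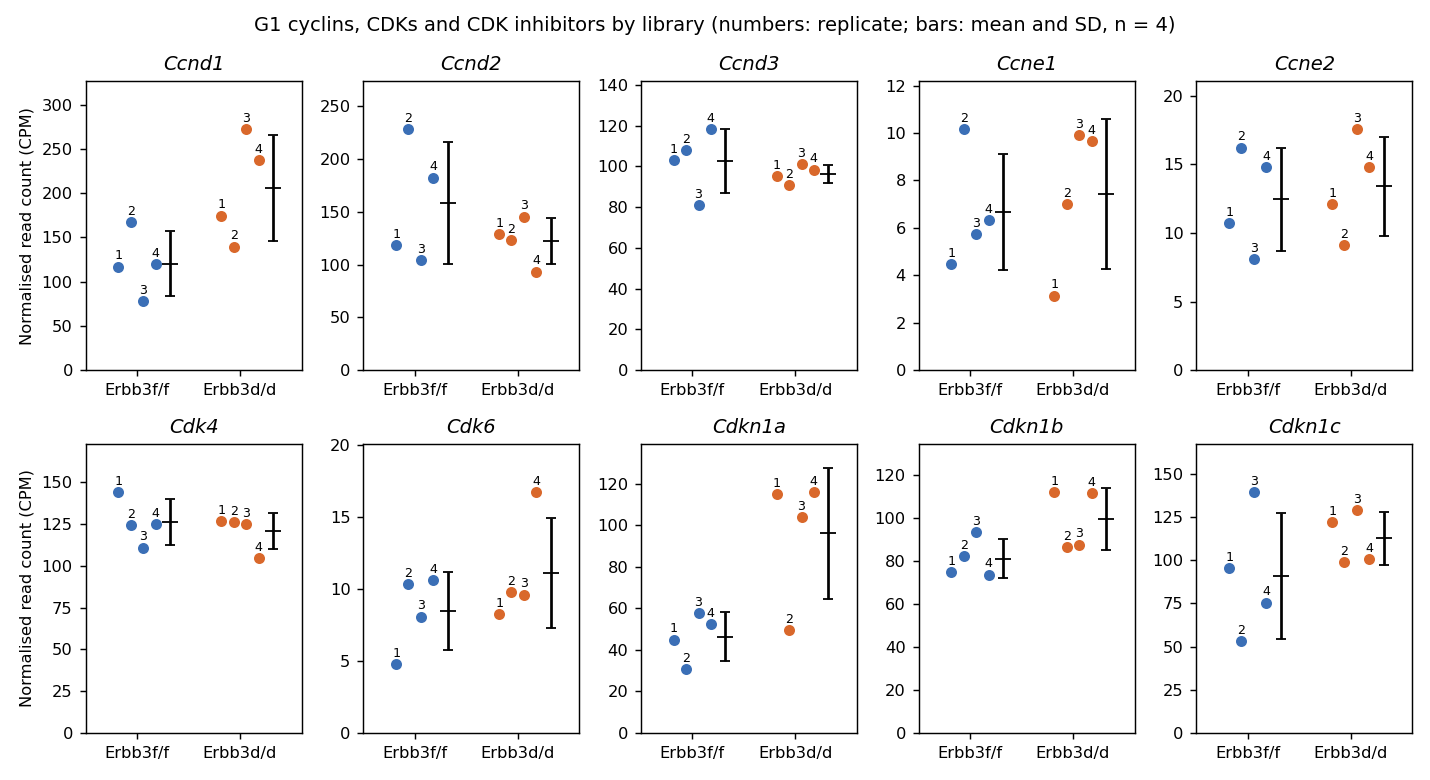
Normalised read count in CPM (y axes, from 0) of each of the 10 genes in the Erbb3f/f (blue) and Erbb3d/d (orange) libraries. Points are libraries with their replicate number, and bars are the mean and SD (n = 4). In the Cdkn1a panel, Erbb3d/d replicates 1, 3 and 4 sit at 104 to 116 CPM, above all Erbb3f/f libraries, and replicate 2 at 49.5 CPM lies among them.

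Among the D-type cyclins, Ccnd1 was higher and Ccnd2 lower by estimate in Erbb3d/d, and Ccnd3 was nearly level. Ccnd1, which encodes the mitogen-responsive cyclin D1, stood at 117, 167, 78.3 and 119.5 CPM in Erbb3f/f replicates 1 to 4 and at 175, 139.7, 272 and 237 CPM in Erbb3d/d. In 3 of 4 Erbb3d/d libraries it was above the highest Erbb3f/f library. The means were 120.4 ± 36.3 and 206.0 ± 59.8 CPM (SD, n = 4), and the log2 fold change was 0.78 ± 0.26 (SE, 95% interval 0.19 to 1.36). Its edgeR adjusted p was 0.323 and its exact permutation p 0.0571. Adding the mean of the epithelial, stromal or smooth muscle markers as a covariate gave 0.19, 0.43 or 0.63. Exons of LTO1 on the other strand cover 1100 of the 4709 exon bases of Ccnd1 (chr7:144929931-144939925, minus strand, GRCm38), and these non-directional reads cannot be told apart there.

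Ccnd2, encoding cyclin D2, stood at 118.5, 228, 104 and 182 CPM in Erbb3f/f and at 129, 123, 145 and 93.3 CPM in Erbb3d/d. The Erbb3f/f libraries were spread more widely than the Erbb3d/d ones, and 1 Erbb3d/d library lay below them all. Its log2 fold change was -0.37 ± 0.25 (95% interval -0.92 to 0.19, edgeR adjusted p = 0.594), and without Erbb3f/f replicate 2 it was -0.13. Ccnd3, encoding cyclin D3, stood at 103, 108, 81.1 and 118 CPM in Erbb3f/f and at 95.1, 90.6, 101 and 98.3 CPM in Erbb3d/d. All Erbb3d/d values of Ccnd3 lay inside the Erbb3f/f range. Its difference was -0.09 ± 0.11 with a 95% interval of -0.34 to 0.16, and edgeR gave an adjusted p of 0.797. It was -0.19 without Erbb3f/f replicate 3, -0.02 without Erbb3f/f replicate 4 and -0.30 once the epithelial mean was a covariate.

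The make-up of the D-type cyclin pool separated the labels without overlap, which the level of none of the 10 genes did. Per kilobase of exon, Ccnd1 made up 50.5, 49.2, 45.02 and 43.6% of the 3 D-type transcripts in Erbb3f/f and 60.2, 55.9, 68.2 and 70.5% in Erbb3d/d. All 4 Erbb3d/d libraries were above all 4 Erbb3f/f libraries. The Ccnd2 share was 30.6 ± 3.73% in Erbb3f/f against 19.7 ± 4.74% in Erbb3d/d (SD, n = 4), also with no overlap. The Ccnd3 share was 22.3 ± 3.53% and 16.6 ± 2.51%, with overlap. Read against read, with no gene length involved, Ccnd1 was 0.782 ± 0.143 times Ccnd2 in Erbb3f/f against 1.73 ± 0.627 times in Erbb3d/d, ranging from 0.656 to 0.987 and from 1.13 to 2.55. Summed D-type levels were 381 ± 103 CPM and 425 ± 69.7 CPM. The 3 shares add up to the whole, so those of Ccnd1 and Ccnd2 are not independent. All shares of the E-type cyclins, of Cdk4 and Cdk6, and of the Cip/Kip inhibitors overlapped between labels. How often shares in other gene sets lack overlap was not computed. These shares are descriptions of a chosen set and were not tested. Erbb3d/d replicates 3 and 4, with the highest Ccnd1 shares, also had the highest epithelial marker means, at 6.96 and 7.06 log2 CPM. Erbb3f/f replicate 4, with the lowest Ccnd1 share, and Erbb3d/d replicate 1, at 60.2%, both had a mean of 6.41. The part of the markers in the shares was not tested.

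**Figure D2:**
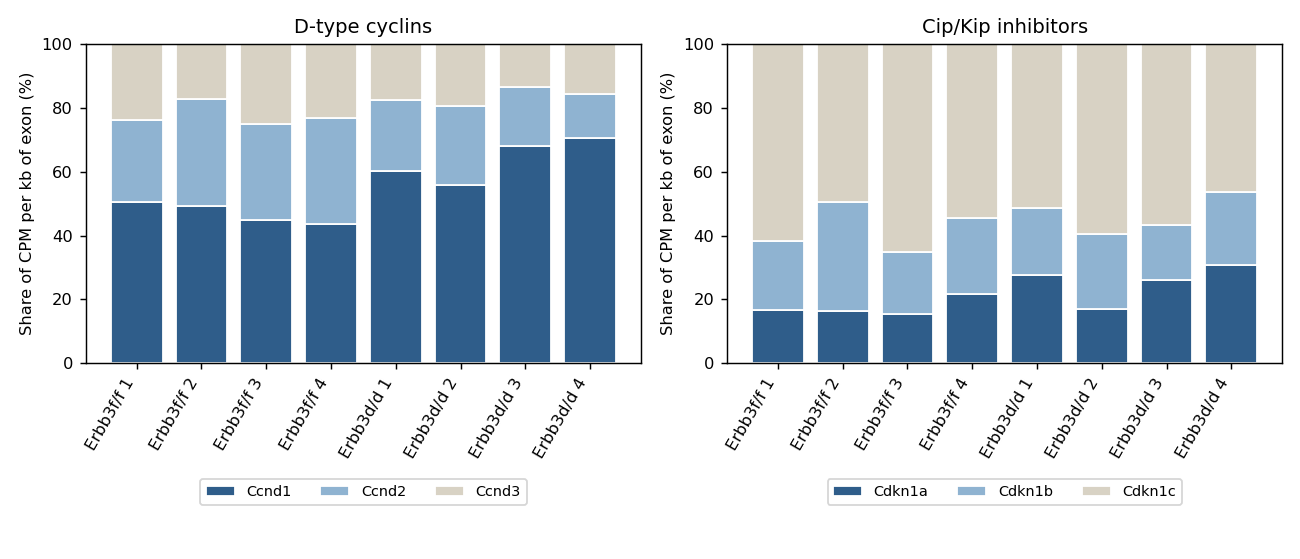
Share of each transcript (y axis, percent of the family's CPM per kilobase of exon) in every library, for the D-type cyclins on the left and the Cip/Kip inhibitors on the right. The Ccnd1 share spans 43.6 to 50.5% in Erbb3f/f and 55.9 to 70.5% in Erbb3d/d, while the Cdkn1a share overlaps between the labels.

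The E-type cyclins were low in both labels. Ccne1, encoding cyclin E1, stood at 4.48, 10.2, 5.74 and 6.33 CPM in Erbb3f/f and at 3.14, 6.999, 9.93 and 9.65 CPM in Erbb3d/d, from 32 to 126 reads. Ccne2, encoding cyclin E2, stood at 10.7, 16.2, 8.09 and 14.8 CPM and at 12.1, 9.10, 17.6 and 14.8 CPM, from 78 to 223 reads. The groups overlapped for both genes. The log2 fold changes were 0.16 ± 0.37 for Ccne1 (95% interval -0.66 to 0.98) and 0.11 ± 0.26 for Ccne2 (-0.47 to 0.70), with edgeR adjusted p of 0.896 and 0.897. These became -0.45 and -0.43 once the epithelial mean was a covariate, -0.48 and -0.11 with the stromal mean, and 0.47 and 0.03 with the smooth muscle mean.

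Cdk4 and Cdk6, the kinase partners of D-type cyclins, differed in abundance and in spread. Cdk4 stood at 144, 124, 111 and 125 CPM in Erbb3f/f and at 127, 126, 125 and 104 CPM in Erbb3d/d. It varied little, and its log2 fold change was -0.07 ± 0.10 (95% interval -0.29 to 0.16, edgeR adjusted p = 0.841). Cdk6 was at 4.77, 10.4, 8.09 and 10.6 CPM in Erbb3f/f and at 8.26, 9.80, 9.61 and 16.8 CPM in Erbb3d/d, from 49 to 191 reads. Its highest value was in Erbb3d/d replicate 4, the library where Cdk4 was lowest. For Cdk6 the log2 fold change was 0.40 ± 0.30 (95% interval -0.27 to 1.06, edgeR adjusted p = 0.635), 0.05 with the epithelial or the stromal mean as a covariate and 0.51 with the smooth muscle mean. It was 0.21 without Erbb3f/f replicate 1 and 0.13 without Erbb3d/d replicate 4. Per kilobase, Cdk4 made up 98.4 ± 0.548% of the pair in Erbb3f/f against 97.8 ± 0.969% in Erbb3d/d. Tspan31 exons on the other strand cover 641 of the 3249 exon bases of Cdk4.

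Of the Cip/Kip inhibitors, Cdkn1a had the largest difference. It stood at 44.9, 30.7, 57.7 and 52.4 CPM in Erbb3f/f and at 115, 49.5, 104 and 116 CPM in Erbb3d/d, from 293 to 1323 reads. Erbb3d/d replicates 1, 3 and 4 were above every Erbb3f/f library, and replicate 2 was not. The mean was 2.07 times higher in Erbb3d/d, at 46.4 ± 11.7 against 96.1 ± 31.6 CPM (SD, n = 4). The log2 fold change was 1.05 ± 0.28 (SE, 95% interval 0.41 to 1.69), with an edgeR adjusted p of 0.281 and an exact permutation p of 0.0857. Without Erbb3d/d replicate 2 it was 1.27 with an edgeR adjusted p of 0.0143, a fit that called 1.75% of 14774 genes. DESeq2 gave 1.06 with an adjusted p of 0.0122 on all 8 libraries, where it called 1.79% of genes. The estimate was 1.01, 1.07 and 1.05 with the epithelial, smooth muscle or stromal mean as a covariate, none with an adjusted p under 0.05. Over its 17 alternatives the adjusted p of Cdkn1a ranged from 0.0122 to 0.9995. The upper end came from the edgeR fit with the epithelial covariate, where the smallest adjusted p of any gene was 0.999.

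Cdkn1b, whose product p27 holds quiescent cells in G1, stood at 75.1, 82.4, 93.6 and 73.7 CPM in Erbb3f/f and at 112, 86.6, 87.8 and 112 CPM in Erbb3d/d. In 2 of 4 Erbb3d/d libraries it was above the highest Erbb3f/f value. Its log2 fold change was 0.29 ± 0.12 (95% interval 0.03 to 0.56), with an edgeR adjusted p of 0.396 and an exact permutation p of 0.114. Cdkn1c, the imprinted gene for p57, was at 95.3, 53.2, 139.6 and 75.5 CPM in Erbb3f/f and at 122, 98.8, 129 and 101 CPM in Erbb3d/d. The Erbb3d/d values of Cdkn1c all lay inside the wider Erbb3f/f range. Its log2 fold change was 0.31 ± 0.26 (95% interval -0.27 to 0.88, edgeR adjusted p = 0.678), 0.13 without Erbb3f/f replicate 2 and 0.59 without Erbb3f/f replicate 3. With the epithelial, smooth muscle or stromal mean as a covariate it was 0.68, 0.66 or 0.44. Together the 3 inhibitors summed to 218.5 ± 52.5 CPM in Erbb3f/f against 308.4 ± 50.6 CPM in Erbb3d/d. The Cdkn1a share per kilobase was 17.5 ± 2.82% and 25.4 ± 5.84%, with overlap.

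**Figure D3:**
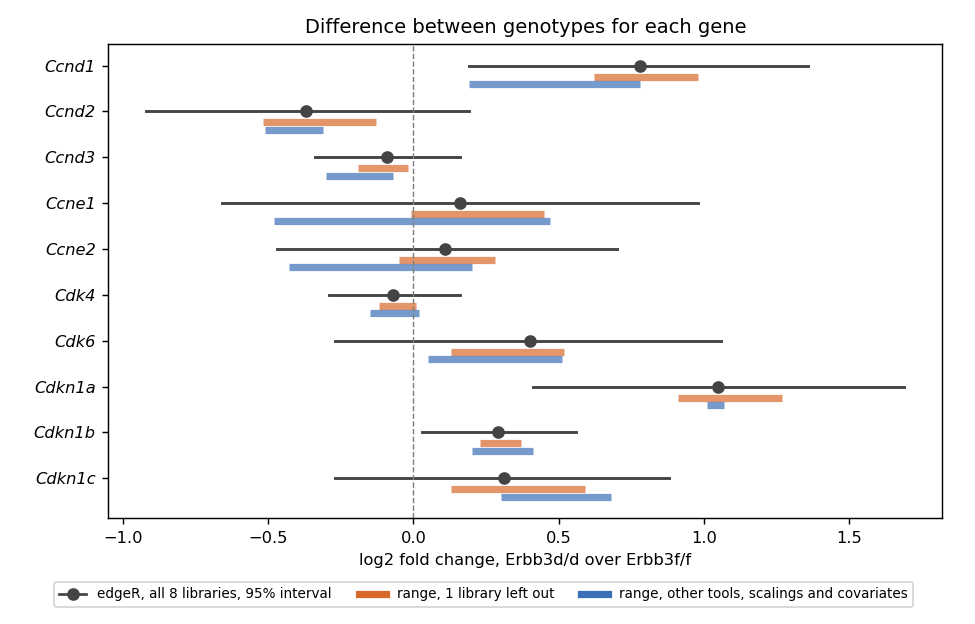
Log2 fold change of Erbb3d/d over Erbb3f/f (x axis) for each gene. Points and black lines are the edgeR estimate with its 95% interval, orange bars the range when 1 library was left out, and blue bars the range over other tools, scalings and covariates. Cdkn1a spans 0.91 to 1.27 over the fits without 1 library, and Ccnd1 spans 0.19 to 0.78 over the others.

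Levels were compared between genes as mean CPM per kilobase of merged exon. In Erbb3f/f the order was Cdkn1c at 44.6, Cdk4 at 38.8, Ccnd1 at 25.6, Cdkn1b at 17.8, Ccnd2 at 16.8, Cdkn1a at 13.1, Ccnd3 at 11.7, Ccne2 at 3.57, Ccne1 at 2.51 and Cdk6 at 0.605. Neighbours in that order overlapped between libraries except Ccnd3 with Ccne2 and Ccne1 with Cdk6. In Erbb3d/d, Cdkn1c led at 55.3, followed by Ccnd1 at 43.8, Cdk4 at 37.1, Cdkn1a at 27.1, Cdkn1b at 21.9, Ccnd2 at 13.0, Ccnd3 at 10.98, Ccne2 at 3.83, Ccne1 at 2.79 and Cdk6 at 0.794. There the neighbours without overlap were Cdkn1b with Ccnd2 and Ccnd3 with Ccne2. Cdkn1a and Cdkn1b were thus next to each other in Erbb3d/d but not in Erbb3f/f, with overlapping ranges in both. Merged exons of Cdk6 are 13989 bases long and those of Cdkn1c 2039, and which exons these cells use was not measured. Other-strand exons also overlap Ccnd2 (Gm43126 and 9330179D12Rik), Ccnd3 (Bysl, 361 bases), Ccne2 (Ints8, 609 bases), Cdk6 (Gm17590, 368 bases), Cdkn1a (AC167363.2, 273 bases) and Cdkn1c (Gm44732, 625 bases), with the same limit for non-directional reads. Ccne1 (chr7:38097984-38107534) and Cdkn1b (chr6:134920401-134925513) have no such overlap, and Cdkn1a lies at chr17:29090976-29100727 (GRCm38). Ccnd3 has a named pseudogene, Ccnd3-ps, which could share its reads.

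Among the other inhibitors, the 4 INK4 genes, whose products block CDK4 and CDK6, were all higher by estimate in Erbb3d/d. Of all 14598 genes tested, 7000 were. At an unadjusted p under 0.05 in edgeR, 2 of the 4 were higher, against 6.64% of all genes. The median log2 fold change was 0.84, and 0.38, 0.77 or 0.93 with the epithelial, smooth muscle or stromal mean as a covariate. By library the list mean overlapped between labels, at 2.42 ± 0.343 in Erbb3f/f against 3.11 ± 0.731 in Erbb3d/d (log2 CPM, SD, n = 4, exact permutation p = 0.143). Cdkn2c (p18) stood at 18.02, 20.3, 16.6 and 17.98 CPM in Erbb3f/f and at 33.5, 20.5, 26.7 and 24.8 CPM in Erbb3d/d. These groups did not overlap, though by a narrow margin at replicate 2 (log2 fold change 0.54 ± 0.16, edgeR adjusted p = 0.294). Of all genes tested, 2.56% were higher without overlap. Cdkn2a, the p16 and ARF locus, was at most 1.47 CPM in Erbb3f/f, and at 4.32, 0.117, 3.31 and 2.98 CPM in Erbb3d/d, from 1 to 44 reads (2.05 ± 0.79, edgeR adjusted p = 0.372). In Erbb3d/d replicate 2, Cdkn2a, Cdkn2c and Cdkn1a were the lowest of their label. The same library was also lowest for Ccnd1, Cdkn1b, Cdkn1c, Plk2, Pmaip1 and Mycn, but not for Ccne1 or Cdk6. This trait is thus not particular to the inhibitors.

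Of 11 other cyclins and kinases, 6 were higher by estimate and 5 lower, and the 3 with an unadjusted p under 0.05 were all higher. The median log2 fold change was 0.17, with -0.08 when the epithelial mean was a covariate and 0.09 without Erbb3d/d replicate 3. Cdk1, the mitotic kinase, averaged 7.46 ± 1.76 CPM in Erbb3f/f against 12.7 ± 5.29 CPM in Erbb3d/d, and Ccnf averaged 9.38 ± 2.44 and 17.8 ± 8.61 CPM (edgeR adjusted p = 0.382 and 0.353). For both, Erbb3d/d replicates 3 and 4 were the high libraries. Cdk7 and Cdk8, kinases of the transcription machinery, had estimates of -0.18 and -0.16. In the replication and mitosis list 18 of 20 genes were higher by estimate, 4 of them at an unadjusted p under 0.05, with a median of 0.37. By the same rules 7000 of the 14598 genes tested were higher by estimate, and 6.64% were higher at an unadjusted p under 0.05. The median was 0.22 without Erbb3f/f replicate 3 or Erbb3d/d replicate 4, and 0.15 without Erbb3d/d replicate 3. By library the mean of this list overlapped between labels. It was 4.58 ± 0.235 in Erbb3f/f against 4.91 ± 0.459 in Erbb3d/d (log2 CPM, SD, n = 4, exact permutation p = 0.286). Cdc6, which loads the replicative helicase, averaged 7.24 ± 2.59 and 15.8 ± 6.65 CPM, and Plk1, a mitotic kinase, 12.9 ± 4.87 and 24.2 ± 7.0 CPM (edgeR adjusted p = 0.296 and 0.305). The genes lower by estimate were Mcm7 and Mcm2, parts of that helicase, at -0.13 ± 0.13 and -0.04 ± 0.23. The median of that list was -0.16 when the epithelial mean entered as a covariate, and -0.01 with the stromal mean.

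The RB and E2F genes showed 7 higher and 6 lower by estimate, with a median of 0.02 and 1 gene, E2f2, at an unadjusted p under 0.05. Over all genes tested, 6.64% were higher and 4.97% lower by that rule, and 2.48% were lower without overlap. E2f2 had a log2 fold change of 0.70 ± 0.31 (edgeR adjusted p = 0.429) and E2f1 0.48 ± 0.22. E2f5 was at -0.27 ± 0.12 (edgeR adjusted p = 0.434). Rbl2, the p130 pocket protein of quiescent cells, was 101 ± 4.56 CPM in Erbb3f/f against 90.8 ± 3.14 CPM in Erbb3d/d, a small difference without overlap (-0.15 ± 0.08, edgeR adjusted p = 0.479). In the list of turnover factors and phosphatases, 7 of 12 were higher by estimate, with 1 gene higher and 1 lower at an unadjusted p under 0.05 and a median of 0.07. Cks2, a small subunit of CDK complexes, averaged 5.86 ± 1.18 CPM in Erbb3f/f against 9.49 ± 3.04 CPM in Erbb3d/d (0.70 ± 0.27, edgeR adjusted p = 0.372). The phosphatase gene Cdc25b had an estimate of 0.24 ± 0.13, and Fbxo31, for a ubiquitin ligase subunit, -0.25 ± 0.13. Wee1, the kinase that holds CDK1 inactive, had the smallest adjusted p of that list. It stood at 88.4, 84.7, 73.4 and 119 CPM in Erbb3f/f and at 57.4, 60.3, 52.2 and 53.2 CPM in Erbb3d/d, with no overlap (-0.71 ± 0.14, edgeR adjusted p = 0.163).

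**Figure D4:**
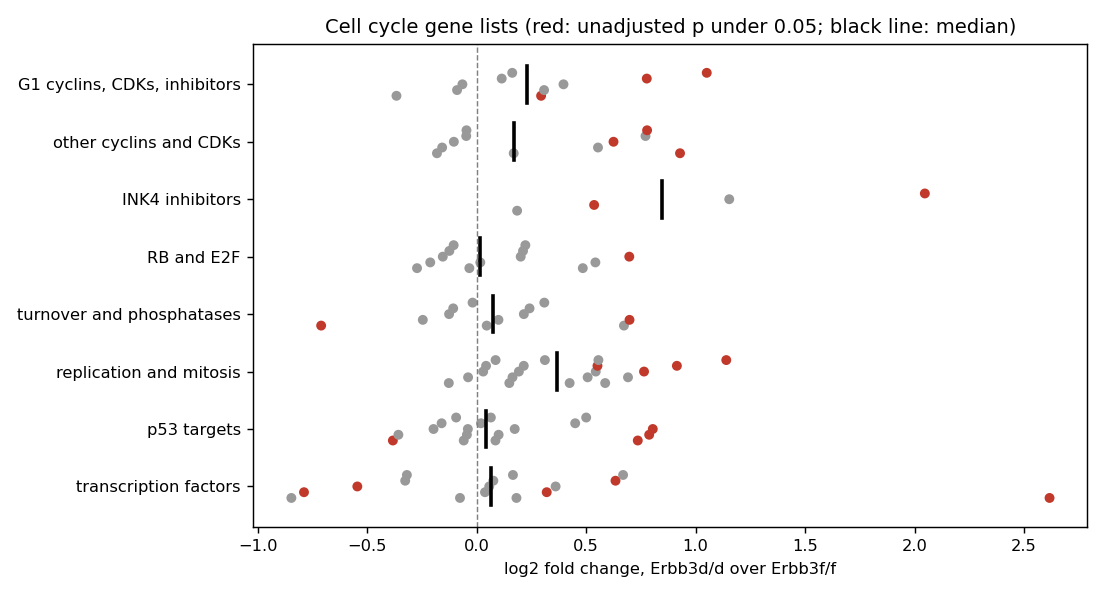
Log2 fold change of Erbb3d/d over Erbb3f/f (x axis) for every gene of the 10 and of 7 cell cycle lists (rows). Red points have an unadjusted p under 0.05 in edgeR, grey points do not, and black lines are medians. No point passed the adjusted threshold, and the replication and mitosis list has its median at 0.37.

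Of the 18 p53-related genes, 10 were higher and 8 lower by estimate, with a median of 0.04. Those at an unadjusted p under 0.05 in edgeR were 3 higher and 1 lower, against 6.64% and 4.97% of all genes tested. Plk2 stood at 49.3, 38.5, 35.3 and 38.4 CPM in Erbb3f/f and at 84.7, 54.7, 66.3 and 63.2 CPM in Erbb3d/d. Pmaip1, which encodes the cell death protein NOXA, stood at 52.7, 31.5, 37.9 and 49.6 CPM and at 71.8, 62.4, 78.9 and 83.0 CPM. Neither gene overlapped between labels (log2 fold changes 0.74 ± 0.15 and 0.79 ± 0.16, edgeR adjusted p = 0.183 for each). Of all genes tested, 2.56% were higher without overlap. Eda2r and Sesn2 had estimates of -0.38 and -0.36. Trp53 itself was at -0.06 and Mdm2 at 0.17, both named after their values were seen.

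Of 16 transcription factors known for roles at cell cycle genes or in uterine stroma, 10 were higher and 6 lower by estimate, 3 and 2 of them at an unadjusted p under 0.05. Over all genes tested, 6.64% were higher and 4.97% lower by that rule, and 2.56% were higher without overlap. By library the list mean was 7.34 ± 0.0463 in Erbb3f/f against 7.44 ± 0.0420 in Erbb3d/d (log2 CPM, SD, n = 4). Its exact permutation p was 0.0286, the lowest this test can give, in a list chosen with earlier results known. Mycn was 4.48, 5.24, 6.13 and 10.3 CPM in Erbb3f/f against 23.2, 14.1, 58.0 and 63.6 CPM in Erbb3d/d, with no overlap (2.62 ± 0.51, edgeR adjusted p = 0.183). Myc was 327, 346, 209.8 and 289 CPM in Erbb3f/f against 200.5, 229, 144 and 105 CPM in Erbb3d/d (-0.79 ± 0.24, edgeR adjusted p = 0.311). The pair had opposite signs. Cdk4, whose promoter window holds the 4 E-boxes shown above, had an interval of -0.29 to 0.16. A link of either factor to Cdk4 was not tested. Foxm1, a regulator of mitotic genes, had an estimate of 0.63 ± 0.20, and Hoxa10, a factor of uterine stroma, -0.54 ± 0.22 (edgeR adjusted p = 0.311 and 0.383).

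Across the 8 libraries each of the 10 genes was set against the mean log2 CPM of the replication and mitosis, epithelial and smooth muscle lists, which makes 30 relations. None passed a Benjamini-Hochberg adjusted permutation p of 0.05 on Pearson's r, and 1 did on Spearman's rho. That one was Ccne2 with replication and mitosis, with rho = 0.952 (exact permutation p = 0.00114, adjusted 0.0342) and r = 0.832 (exact permutation p = 0.0107, adjusted 0.107). Without Erbb3d/d replicates 3 and 4, the farthest from the median, r was 0.928 (exact permutation p = 0.0167, adjusted 0.25). Ccnd1 with the same mean gave r = 0.865 (exact permutation p = 0.00454, adjusted 0.0755) and rho = 0.881 (exact permutation p = 0.00724, adjusted 0.109). Without those libraries r was 0.576, so that relation rests on them in part.

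Ccnd1 against the epithelial mean gave r = 0.896 (exact permutation p = 0.00504, adjusted 0.0755) and rho = 0.714 (exact permutation p = 0.0576, adjusted 0.432). Without Erbb3f/f replicate 3 and Erbb3d/d replicate 4 the r was 0.754. Centred within label, r was 0.798 for this relation, 0.855 for Ccnd1 with replication and mitosis, and 0.874 for Ccne2. None of these passed adjustment (adjusted exact permutation p = 0.183, 0.107 and 0.107). The epithelial markers averaged 6.20 ± 0.316 in Erbb3f/f against 6.73 ± 0.332 in Erbb3d/d (log2 CPM, SD, n = 4), with 9 of 12 markers higher in Erbb3d/d at an unadjusted p under 0.05, against 6.64% of all genes. The smooth muscle mean was 6.34 ± 0.485 and 7.24 ± 0.523, with 11 of 12. The stromal mean was 9.79 ± 0.116 and 9.59 ± 0.181, with 5 of 13 markers lower at an unadjusted p under 0.05, against 4.97% of all genes, and none higher. Of the most abundant markers, the estimates were -0.22, 0.58 and 0.76 for the epithelial Cldn3, Cdh1 and Krt8, and -0.28, 1.24 and 1.13 for the smooth muscle Synpo2, Tagln and Myh11. They were -0.20, -0.04 and 0.08 for the stromal Col3a1, Col1a1 and Col1a2. Endothelial Cdh5, Pecam1 and Kdr were at -0.38, 0.11 and 0.47, and immune Lyz2, H2-Ab1 and C1qa at 0.11, 0.09 and 0.12. Of 10 endothelial markers 9 were higher by estimate, with a median of 0.19 and 0 at an unadjusted p under 0.05. Of 11 immune markers 6 were higher and 5 lower, 1 of the lower ones at an unadjusted p under 0.05. Among all 14598 genes tested, 7000 were higher by estimate. Both the epithelial and the smooth muscle mean ran higher in Erbb3d/d (exact permutation p = 0.0571 for each). With 8 libraries the covariate fits therefore cannot fully separate marker content from label. The part of the markers in the Ccnd1 difference was not tested. Cdkn1a gave r = 0.575 with the epithelial mean and 0.543 with the smooth muscle mean, with rho = 0.548 and 0.429 (exact permutation p = 0.139 and 0.175 on r, 0.171 and 0.299 on rho). Centred within label these r values were 0.12 and -0.001.

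**Figure D5:**
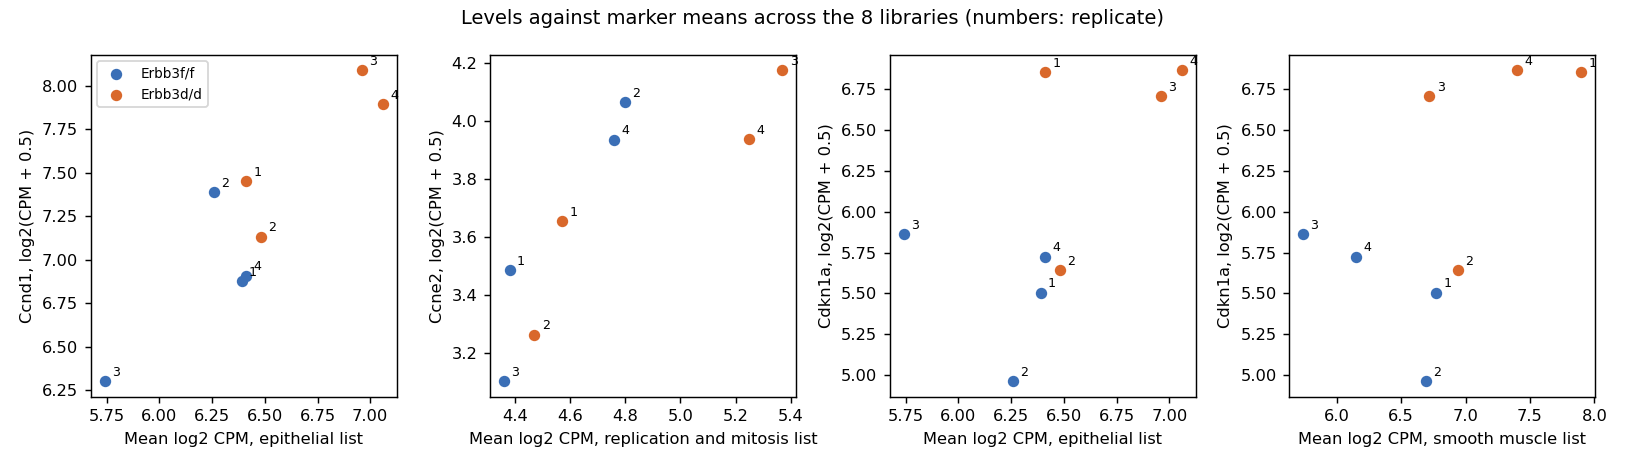
Levels of Ccnd1, Ccne2 and Cdkn1a (y axes, log2(CPM + 0.5)) against marker means (x axes, mean log2 CPM) in the 8 libraries, blue for Erbb3f/f and orange for Erbb3d/d, numbered by replicate. For Ccnd1 against the epithelial mean r is 0.896, which did not pass adjustment (exact permutation p = 0.0755 adjusted), and for Cdkn1a the Erbb3d/d libraries 1, 3 and 4 sit above the others.

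By Pearson's r of log2 CPM over the 8 libraries, the genes most like Cdkn1a were Dusp6 (0.976), Ccdc149 (0.975) and Dusp10 (0.970). For Ccnd1 they were Map2k3 (0.975), Dnajc12 (0.968) and Sorbs2 (0.966). Ccnd2 was most like Tmem55a (0.954), Pdhx (0.943) and Gigyf2 (0.940). Ccnd3 was most like E2f3 (0.971), Csda (0.940) and Fam171a1 (0.923). Ccne1 was most like Sipa1l1 (0.972), Prkch (0.970) and Eif4ebp2 (0.966). Ccne2 was most like Acsl5 (0.972), with Tspan1 and the replication-list gene Tk1 next (0.955 each). The genes nearest to Cdk4 were Rpl29 (0.985), Rpl41 (0.972) and Rps25 (0.964), all of the ribosome. Cdk6 was most like Uba6 (0.950), Cnr1 (0.948) and R3hcc1l (0.946). Cdkn1b was most like Irs2 (0.977), Zfpm2 (0.965) and Pcmtd1 (0.963). Cdkn1c was most like Pvr (0.958), Csrnp1 (0.954) and Tmem86a (0.948). All 8 libraries and both labels enter each r, and the highest of so many values is high by selection, so these are descriptions.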

How the data were processed

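RNA from 8 libraries was poly(A)-selected, and non-directional libraries were read as 150-base pairs, per the labels' protocols. The deposited files hold whole-number read counts per gene symbol, made by the authors. The submitters' processing notes name HISAT2, SAMtools, HTSeq, StringTie and GRCm38 (mm10), and versions and counting options are not given in the sources used here. The 5 lines that name no gene held 70.9 to 73.0% of entries and were left out. Entries in no annotated feature alone were 48.3 to 50.8% of all, and ambiguous ones 0.147 to 0.166%. The reason was not tested. edgeR 4.0.16 was run on the counts (filterByExpr, TMM, robust quasi-likelihood, Benjamini-Hochberg over 14598 genes, threshold 0.05), in R 4.3.3. Single genes were also compared by exact permutation of the 70 assignments on log2(CPM + 0.5). Alternatives were DESeq2 1.42.0, limma-voom 3.58.1, other scalings, no filter, covariates, a replicate block and each library left out. The scripts were tested on simulated data. No 2 libraries of the same label agreed within sampling noise. Exon lengths and positions come from GENCODE vM21 (GRCm38), and no lengths enter the tests. Genes named from each list are those passing the adjusted threshold or, with none in a direction, the 2 with the smallest p, and of each cell type list the 3 markers of highest mean CPM. The 10 genes and all lists were chosen with earlier results of these data known. Of 12 immune markers, Adgre1 was not listed under that symbol, and the immune and endothelial means (5.69 and 5.66, 4.43 and 4.67 log2 CPM in Erbb3f/f and Erbb3d/d) were not used as covariates.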

Additional observations from a re-analysis of the deposited data

Results flagged for a closer look

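Among the 26 groups of 4 libraries examined, 1 held a library standing apart from the other 3, where chance would give about 1.3 at 1 in 20. Cdk4 was at 104.4 CPM in Erbb3d/d replicate 4, against 125.0 CPM in the nearest library of that label, a gap that takes up 0.931 of the group's range. Without that library the log2 fold change of Cdk4 was 0.00.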

How the results depend on the processing

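Of 358 alternative values, 10 single-gene estimates changed sign, 3 passed the threshold where the first value had not, and 15 counts or medians moved (counts by over 1.5 times, list medians, with or without a change of sign, by at least 1 SD between libraries). The other 330 did none of these, but sizes could still shift, as for Ccnd1 (0.78 to 0.19) and Cdk6 (0.40 to 0.05) with the epithelial mean as a covariate. Against 0 genes called by edgeR, DESeq2 called 262, and leaving out 1 library gave 0 to 259, the highest without Erbb3d/d replicate 2. Of the 10 genes, DESeq2 called 1 and leaving out 1 library gave 0 to 1, Cdkn1a each time. With the replicate block, 52 genes and 1 of the 10 were called, again Cdkn1a (1.01, edgeR adjusted p = 0.0355). Same-numbered libraries correlated at 0.241, 0.172, 0.0998 and 0.152 in their deviations from the label means. Not every library correlated best with its own number (Erbb3f/f 4 did with Erbb3d/d 3, at 0.318), so the numbers are not taken to pair them. Without the 2 farthest libraries, 1 of 30 relations passed instead of 0: Ccnd2 with replication and mitosis, r = 0.958 against 0.091 with all 8 (adjusted exact permutation p = 0.0417).

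Signs turned only in 3 genes near 0. Ccne1 was -0.45 with the epithelial and -0.48 with the stromal mean as a covariate, and -0.01 without Erbb3d/d replicate 3. Ccne2 was -0.43 and -0.11 with those covariates, -0.05 without Erbb3f/f replicate 3 and -0.04 without Erbb3d/d replicate 3. Cdk4 was 0.02 with the stromal mean, 0.01 without Erbb3f/f replicate 1 and 0.00 without Erbb3d/d replicate 4. Leaving out 1 library gave -0.01 to 0.45 for Ccne1, -0.05 to 0.28 for Ccne2 and -0.12 to 0.01 for Cdk4. The cause was not tested. Ccne1, Ccne2 and Cdk6 rest on 32 to 223 reads a library, so counting error weighs most there.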
